A study of Mus musculus with 18 samples.

Results

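The genes that carry proteins into the endoplasmic reticulum (ER) and on to the Golgi apparatus were followed in mouse embryonic stem (ES) cells and in the embryoid bodies (EBs) they form. Clones were taken by gene symbol, from the subunits of the signal recognition particle (Srp) and its receptor (Srpr, Srprb), the translocon (Sec61 to Sec63), the TRAP complex (Ssr), the signal peptidase (Sec11, Spcs), the protein disulphide isomerases (Pdia), the COPII coat and its SNARE (Sec13, Sec22 to Sec24, Sec31), the COPI coat (Cop), the p24 family (Tmed) and the KDEL receptors (Kdelr). The histone chaperone subunit Ssrp1 and the signalosome genes (Cops) share such a prefix and were left out. The symbols gave 66 clones of 46 genes, among 15360 clones on the array, of which 9866 had a single symbol. All 66 had a value on at least 1 array of every condition, so none was lost to that filter, and 42 had a value on every array. Of the 46 genes, 18 were represented by more than 1 clone, so the clones are not independent measurements of 66 genes.

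A secreted or membrane protein is marked by a signal sequence that the signal recognition particle binds as it leaves the ribosome. The particle docks the ribosome at its receptor, the Sec61 channel passes the chain into the ER, and the signal peptidase removes the signal. Disulphide isomerases fold the product, COPII vesicles carry it towards the Golgi, and COPI vesicles bring back escaped ER residents, which the KDEL receptors recognise. Cells adjust the size of this machinery to their secretory load, in part through the unfolded protein response.

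The series measured IMT11 mouse ES cells and their EBs on 2-colour cDNA arrays of the NIA 15K clone set, to ask how expression moves as ES cells differentiate with and without LIF, the cytokine that maintains the undifferentiated state. Undifferentiated cells (D0) were kept with LIF on gelatin. EBs were started from 1000 cells each in hanging drops and grown for 1, 2, 3 or 4 days in the same medium lacking LIF, named D1-LIF to D4-LIF, or containing it, named D1+LIF to D4+LIF. Each of the 9 conditions was hybridised on 2 arrays against a pooled control, once labelled with Cy3 and once with Cy5, so there were 18 arrays. All groups came from 1 ES cell line, which the study describes as not genetically modified. The 2 arrays of a condition used different RNA, but the labels do not tie an array to a biological set, so a difference between sets cannot be told apart from one between dyes. The labels name EBs of Days 1 to 4 as the source of the pool and the methods name all samples, so whether the pool held D0 RNA is unclear. These are bulk RNA samples, in which fewer cells of a type and less RNA per cell cannot be told apart.

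The values are log2 ratios, taken as sample over pool, with the median of all clones on each slide of each array set to 0. The direction is likely, since the labels name the sample as the first channel, but no source states it. Arrays of the same dye correlated over all clones at r = -0.24 to 0.78 in Cy3 and 0.35 to 0.91 in Cy5, while the 2 arrays of a condition correlated at -0.52 to 0.48. The clones were printed on 2 slides, and 34 of the clones studied lay on slide 1 and 32 on slide 2. Slide 1 of the D0 array in Cy3 had an SD over all clones of 2.23, against 0.49 on slide 2 of the same array. Slide 1 was also wide in Cy5 for D1+LIF (2.40, against 0.70 on slide 2) and D2-LIF (2.10, against 0.62). It was largely without values on the D2-LIF array in Cy5, where 24 of the 66 clones had none. The D1+LIF array in Cy5 gave no value for 11 clones. On slide 2 the EB arrays had SDs of 0.17 to 0.30 in Cy3 and 0.59 to 1.41 in Cy5, so the same log2 difference did not mean the same rank on both dyes. Duplicate spots of the member clones differed by a median of 0.0849 on the log2 scale, against 0.0772 for all clones.

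**Figure D1:**
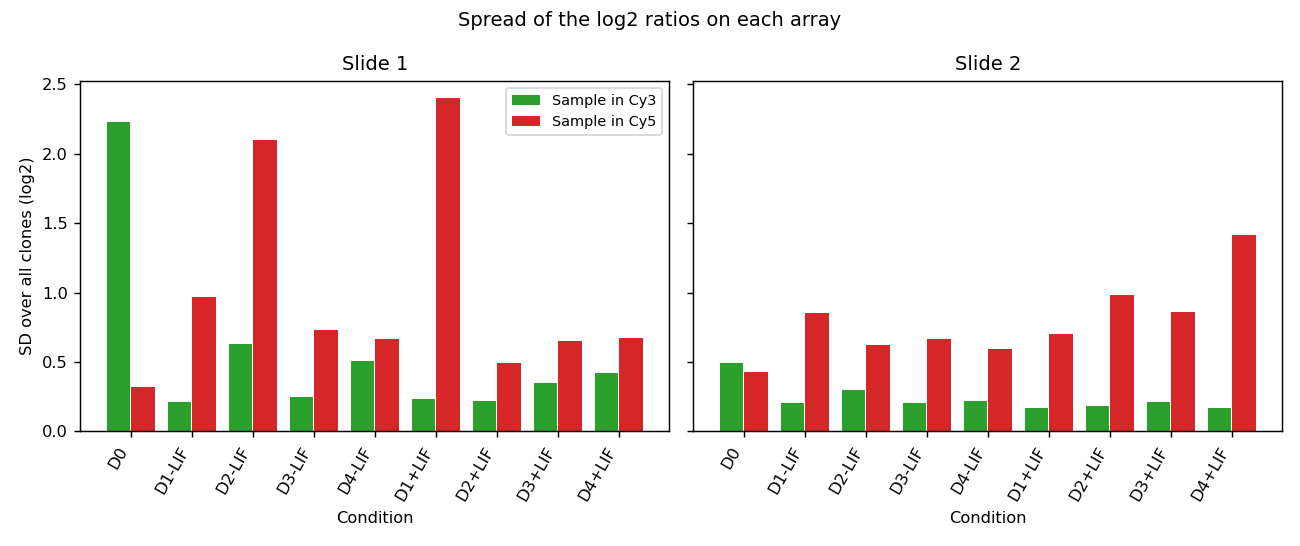
SD over all clones of the centred log2 ratios (vertical axis) on each slide of the 18 arrays, by condition and dye. The tallest bars of slide 1 are D1+LIF in Cy5 at 2.40, D0 in Cy3 at 2.23 and D2-LIF in Cy5 at 2.10, and on slide 2 every EB bar is taller in Cy5 than in Cy3.

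Of the 46 genes, 38 had a promoter window in RefSeq (GRCm38.p6, from 250 bases before to 50 after the start of the gene). The windows below are shown because Pdia3, Tmed3 and Copb2 had the smallest p-values of the member clones across conditions, and because Pdia6, Copb2 and Sec24d hold letters to which transcription factors of the unfolded protein response are known to bind. Capitals mark a match to the ER stress response element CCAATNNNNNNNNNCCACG in Pdia6 or to the unfolded protein response element TGACGTGG in Copb2 (on the reverse strand) and Sec24d, and the windows of Pdia3 and Tmed3 held neither.
Pdia6 (chr12:17266339-17266638, plus strand): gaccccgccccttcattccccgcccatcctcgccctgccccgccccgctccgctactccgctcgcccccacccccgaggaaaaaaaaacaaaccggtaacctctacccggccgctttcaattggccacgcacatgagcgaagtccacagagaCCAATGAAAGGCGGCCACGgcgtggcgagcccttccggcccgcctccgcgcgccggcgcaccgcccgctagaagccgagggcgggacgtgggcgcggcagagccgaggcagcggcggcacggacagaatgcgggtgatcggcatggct
Copb2 (chr9:98563481-98563780, plus strand): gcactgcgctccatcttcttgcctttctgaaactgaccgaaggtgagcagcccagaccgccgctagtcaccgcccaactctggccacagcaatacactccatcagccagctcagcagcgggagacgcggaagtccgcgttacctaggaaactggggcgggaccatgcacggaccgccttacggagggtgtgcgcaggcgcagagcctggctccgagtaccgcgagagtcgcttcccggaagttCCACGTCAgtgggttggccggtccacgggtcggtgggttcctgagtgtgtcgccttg
Sec24d (chr3:123267246-123267545, plus strand): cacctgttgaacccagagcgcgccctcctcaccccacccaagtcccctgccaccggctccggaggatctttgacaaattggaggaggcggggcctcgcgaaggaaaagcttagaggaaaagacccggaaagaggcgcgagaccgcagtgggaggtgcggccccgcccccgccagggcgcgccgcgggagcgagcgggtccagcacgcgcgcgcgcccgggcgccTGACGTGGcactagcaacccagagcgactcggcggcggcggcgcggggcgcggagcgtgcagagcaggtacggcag
Pdia3 (chr2:121413652-121413951, plus strand): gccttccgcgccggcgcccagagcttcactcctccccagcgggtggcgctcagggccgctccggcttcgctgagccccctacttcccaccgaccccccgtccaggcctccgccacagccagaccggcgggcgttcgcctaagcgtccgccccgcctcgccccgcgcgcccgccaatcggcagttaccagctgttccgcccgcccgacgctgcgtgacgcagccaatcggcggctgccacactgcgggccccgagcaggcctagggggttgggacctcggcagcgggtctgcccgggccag
Tmed3 (chr9:89704994-89705293, minus strand): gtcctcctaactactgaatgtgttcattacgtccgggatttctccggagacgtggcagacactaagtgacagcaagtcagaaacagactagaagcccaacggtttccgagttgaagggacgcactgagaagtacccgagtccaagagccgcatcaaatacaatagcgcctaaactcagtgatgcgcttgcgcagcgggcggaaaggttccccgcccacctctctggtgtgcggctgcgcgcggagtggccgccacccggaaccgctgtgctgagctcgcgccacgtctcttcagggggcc

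The first letter of the match lay 98 bases before the start in Pdia6, 7 bases before it in Copb2 and 26 bases before it in Sec24d. Searched on both strands, the ER stress response element stood in 1 of the 38 member genes with a window (2.63%) and in 0.119% of all 32851 windows. The member shares count genes with a match in any of their windows, while the shares of all windows count single windows. The unfolded protein response element stood in 2 (5.26%), against 0.676% of all windows. The E-box CACGTG was found in none of the member genes that held either element, but in Sec23ip, Sec62, Ssr1 and Tmed10 (10.5%, against 7.15%). CCGGAAG, the core letters bound by ETS factors, was found in 10 member genes (26.3%, against 8.86%), Copb2 and Pdia6 among them. These matches describe letters, not bound sites.

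Against the pool, the member clones lay low on the Cy5 arrays and near the middle on the Cy3 arrays. Their median log2 ratio ran from -0.46 (D4+LIF) to -0.03 (D2-LIF) on the 8 EB arrays in Cy5 and was -0.15 for D0. On the EB arrays in Cy3 it ran from -0.08 (D1-LIF) to 0.18 (D2-LIF), and on the D0 array in Cy3 it was 0.52, from 2.65 on slide 1 and 0.14 on slide 2. Ratios at or below -1, which is 2-fold under the slide median, were seen in 14.3% to 36.4% of the member clones on the EB arrays in Cy5, against 9.79% to 20% of all clones. Below 0 on every Cy5 array with a value were 21 of the 66 clones (31.8%, against 16.8% of all clones), and 5 of them were at or below -1 throughout, namely Sec61g, the Ssr2 clone of slide 2, Pdia3, Pdia4 and Tmed3. Sec22b of slide 2, Sec23ip and Tmed5 lay above 0 on every Cy5 array with a value (4.55%, against 14.4% of all clones). No member clone was at or below -1 on an EB array in Cy3, where only 0% to 0.625% of all clones were.

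**Figure D2:**
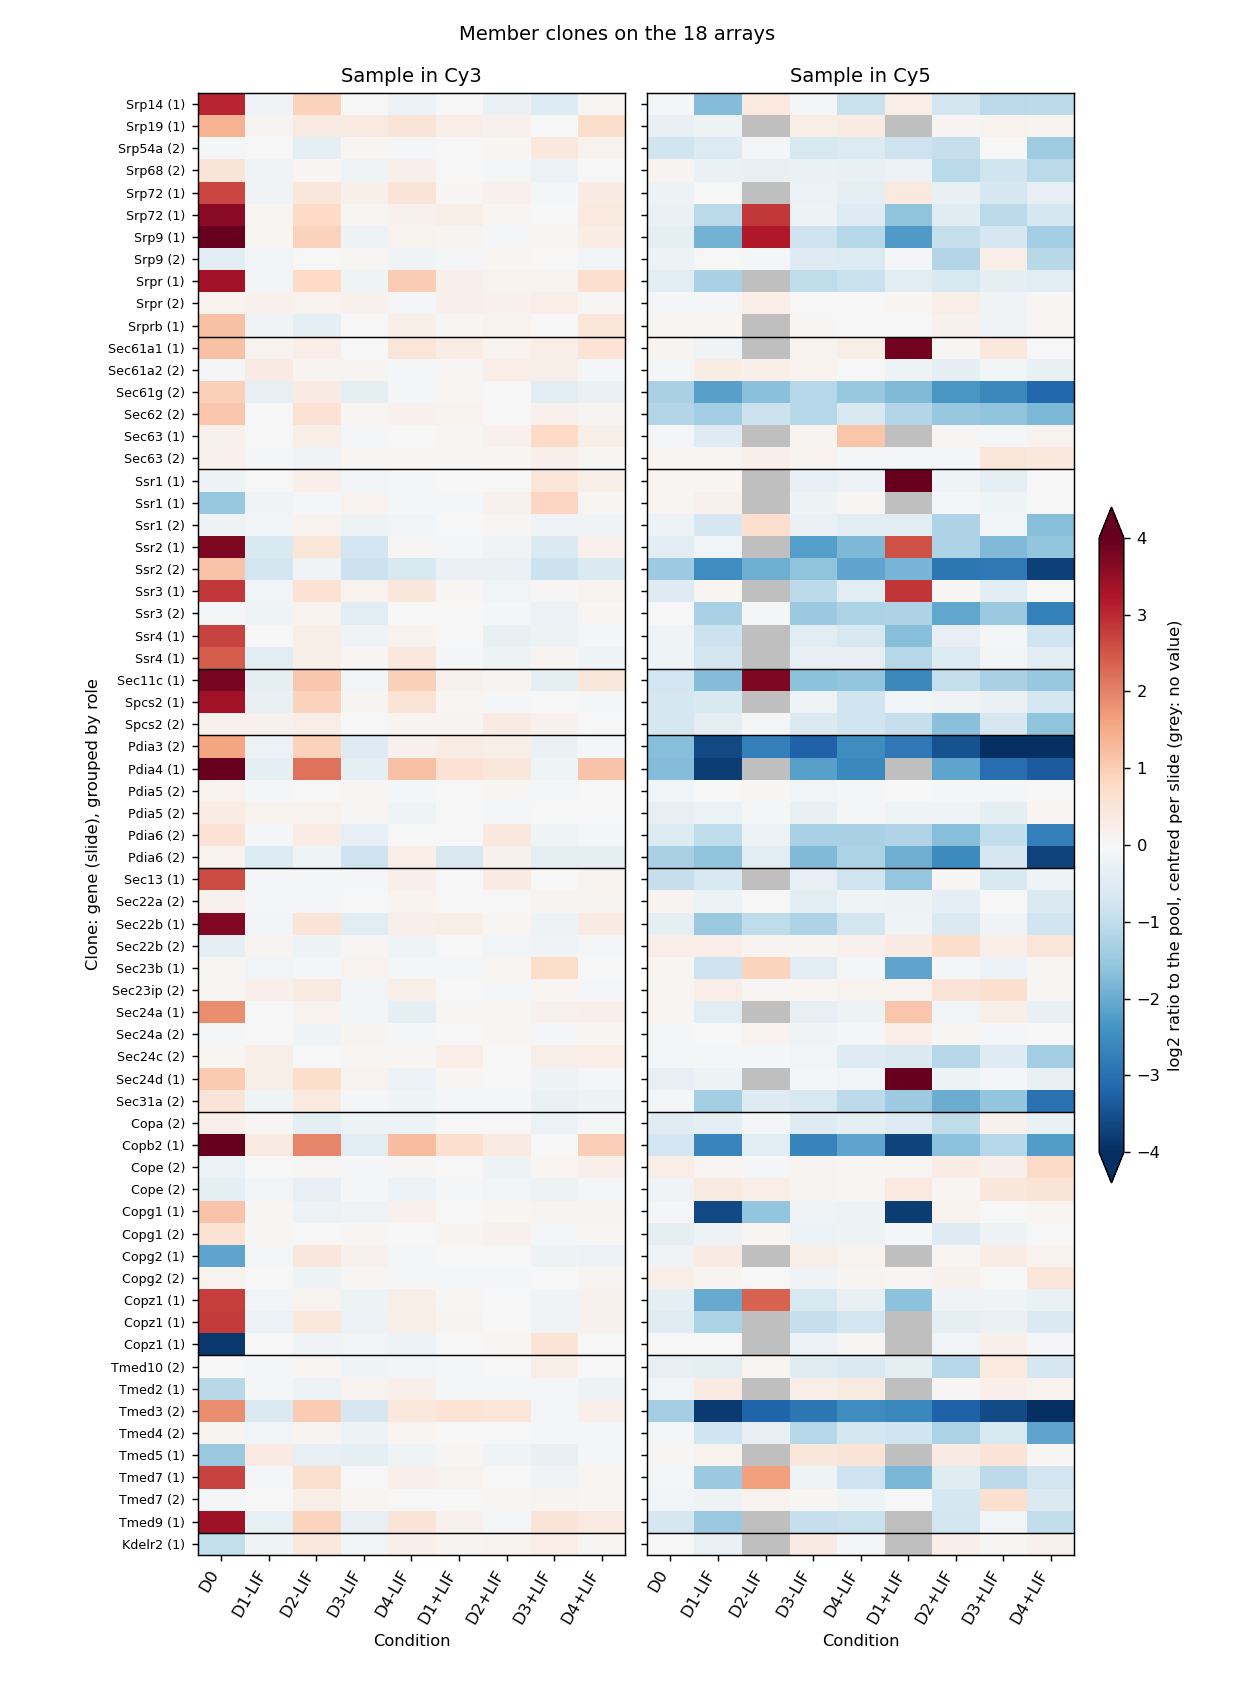
Log2 ratios to the pool (colour) of the 66 member clones (rows, by role, with the slide in parentheses) on the 9 conditions (columns), with the sample in Cy3 (left) and in Cy5 (right). Pdia3, Pdia4 and Tmed3 are dark blue across the Cy5 panel, and the D0 column of the Cy3 panel is red for most clones of slide 1.

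The first comparison set each EB condition against D0. With limma (9 condition means and a dye term, Benjamini-Hochberg adjustment over the 15360 clones), no member clone passed an adjusted p of 0.05 in any of the 8 contrasts, nor did any other clone (0%). The smallest adjusted p of a member was 0.0954, for Pdia3 in D4+LIF. At an unadjusted p under 0.05, 22 of the 66 clones differed in D1-LIF (33.3%, against 21.8% of all clones), 6 in D2-LIF (9.09%, 7.65%), 16 in D3-LIF (24.2%, 18.8%) and, at Day 4, 13 (19.7%, 11.8%). With LIF they were 14 in D1+LIF (21.2%, 20.6%), 16 in D2+LIF (24.2%, 18%), 20 in D3+LIF (30.3%, 21.3%) and, at Day 4, 21 (31.8%, 26.6%). Of the 22 in D1-LIF, 18 were lower than D0, and among all clones 2069 of the 3354 at that p were lower. Of the 21 in D4+LIF, 17 were lower, and among all clones 2354 of 4086 were. The 8 contrasts share the same 2 D0 arrays, so they are not separate observations.

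The median log2 difference from D0 over the member clones was -0.52, -0.04, -0.51 and -0.25 at Days 1 to 4 without LIF and -0.40, -0.50, -0.43 and -0.55 with LIF, while the median over all clones stayed between -0.02 and 0.03. Without the D0 array in Cy3 the medians were -0.21, 0.21, -0.20 and -0.10 without LIF and -0.09, -0.17, -0.03 and -0.14 with LIF. With the Cy3 ratios read the other way they lay between 0.05 and 0.27. The medians were lowest on slide 1 in Cy3. On slide 1 the member median ran from -2.74 to -2.15 in Cy3 and, apart from 1.25 in D2-LIF, from -0.50 to 0.08 in Cy5. On slide 2 it ran from -0.15 to -0.09 in Cy3 and from -0.63 to 0.15 in Cy5. With all arrays scaled to the same spread within each slide, the member medians were between -0.14 and 0.14, and they took both signs.

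**Figure D3:**
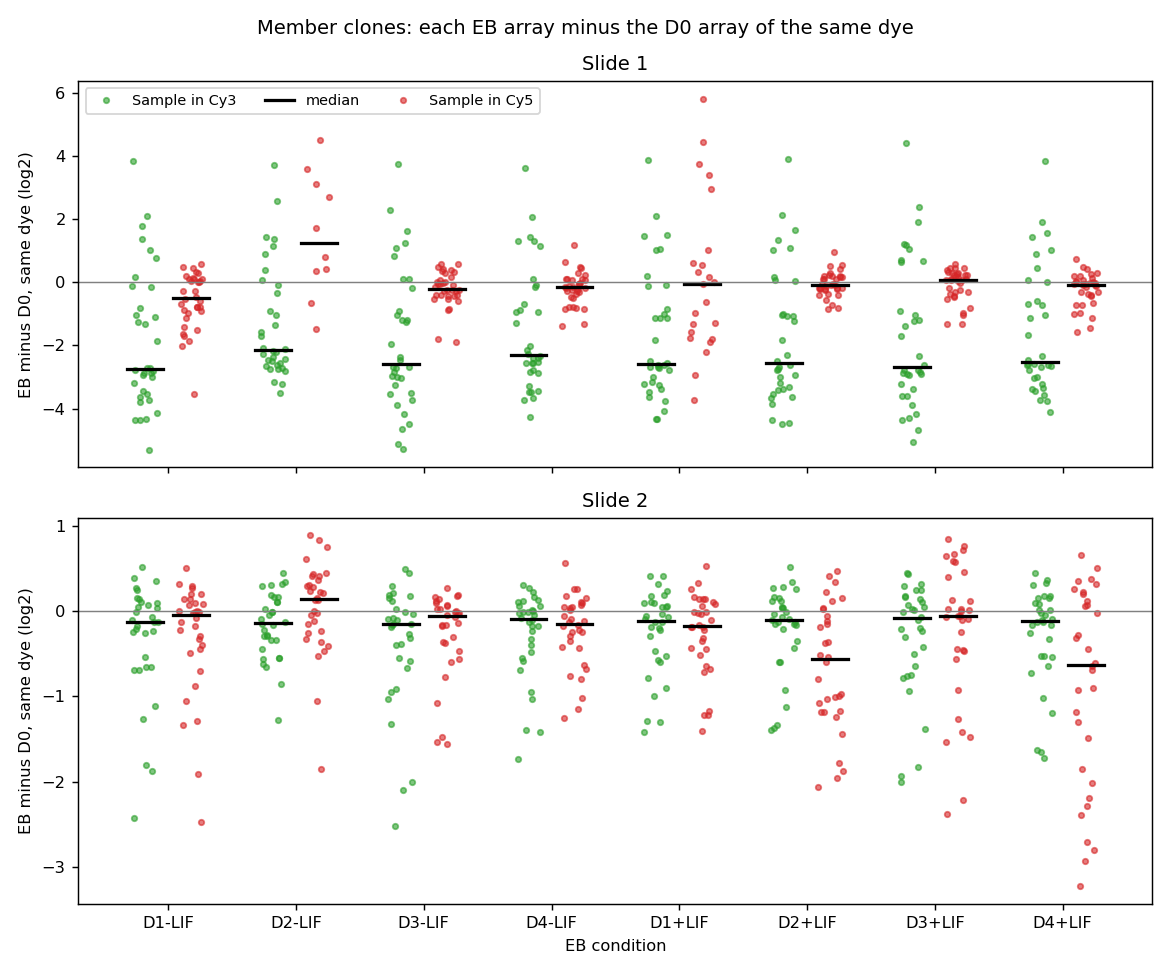
Log2 difference of each member clone between an EB array and the D0 array of the same dye (vertical axis), by EB condition, with slide 1 above and slide 2 below on their own scales. Black bars are medians, which on slide 1 in Cy3 all lie below -2, while on slide 2 they lie within 0.7 of 0 and a tail of clones reaches down to -3.23.

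The EB arrays were also compared with D0 by their order, which depends on the spread of each array. In 8 member clones (12.1%) every EB array lay below the D0 array of the same dye, on both dyes, against 6.69% of all clones. Of these, 7 were on slide 2 (21.9% of its 32 member clones, against 7.41% of all its clones), namely Srp68, Ssr2, Pdia3, Sec22a, Sec31a, Tmed3 and Tmed4. The other, Pdia4, was on slide 1, where the share was lower than among all clones (2.94% of its 34 member clones, against 5.98%). The opposite order, every EB array above D0, was seen in 1 of the 2 Cope clones, the Copg2 clone of slide 1 and Tmed2 (4.55%, against 8.14% of all clones). The other Cope clone lay under D0 on 6 of 8 EB arrays in Cy5 and on none in Cy3, and the Copg2 clone of slide 2 on 8 of 8 in Cy3 and 7 of 8 in Cy5. By percent rank within the slide, 2 member clones, Tmed3 and Srp68, lay under D0 on every EB array (3.03%, against 1.33% of all clones), and with the Cy3 ratios read the other way none did (0%, against 2.46%). All of these counts rest on 1 D0 array per dye.

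Fitted alone, slide 2 gave calls. D1-LIF called 2 of the 32 member clones (6.25%, against 0.638% of its 7680 clones), D3-LIF none (0%, against 0.104%, with 4 members at an unadjusted p under 0.05), D3+LIF 1 (3.12%, against 0.508%) and D4+LIF 7 (21.9%, against 17.1%, and against 8.79% that were called and lower). The 7 clones of D4+LIF were Pdia3, Tmed3, Ssr2, Sec31a, Sec61g, Srp68 and 1 of the Pdia6 clones, all lower than D0, with log2 differences from -2.44 (Tmed3) to -0.85 (Srp68) and limma adjusted p from 0.0191 to 0.0444. The 2 clones of D1-LIF were Tmed3 (-2.46) and Pdia3 (-1.86), and Pdia3 was also the clone of D3+LIF (-2.11 ± 0.35 SE, adjusted p = 0.0341). With the arrays of slide 2 scaled to equal spread, these 10 differences were between -1.48 and -0.03 with limma adjusted p of 0.626 or more. If the Cy3 ratios were read the other way, the differences were between -1.11 and -0.02 with adjusted p of 0.448 or more. Without the D0 array in Cy3 none of the 10 was called (0.0538 or more), and without the D0 array in Cy5 Tmed3, Ssr2 and Pdia3 in D4+LIF still were (0.0459 to 0.0498). Without the D4+LIF array in Cy5 the 7 differences of D4+LIF had adjusted p of 0.131 or more, while the other 3 were called (0.0054 to 0.00576).

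Of the disulphide isomerases, Pdia3 had the smallest F-test p of all member clones. It forms disulphide bonds in glycoproteins together with calnexin and calreticulin. Its single clone, on slide 2, read 1.58 for D0 in Cy3, and on the EB arrays in Cy3 -0.23, 0.92, -0.52 and 0.18 without LIF and 0.28, 0.24, -0.25 and -0.05 with LIF, for Days 1 to 4. In Cy5 it read -1.69 for D0, then -3.60, -2.74, -3.25 and -2.49 without LIF and -2.86, -3.48, -4.07 and -4.49 with LIF. All 8 EB arrays were thus under D0 on each dye, with differences of -2.10 to -0.65 in Cy3 and of -2.80 to -0.80 in Cy5, and the dyes did not overlap with each other. Against D0, the fitted log2 difference in D4+LIF was -2.21 ± 0.38 (SE, n = 2 arrays a condition; limma adjusted p = 0.0954). The F test over all conditions gave 0.00316 unadjusted and 0.781 adjusted by limma. Ranked among the clones of its slide, Pdia3 lay at 98.8% of the way up on the D0 array in Cy3 and at a median of 53.7% on the EB arrays in Cy3, whereas in Cy5 it was at 1.19% for D0 and a median of 1.18% for EBs.

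Pdia4, an isomerase with an additional thioredoxin domain, sat on slide 1. It read 4.91 for D0 in Cy3 and between -0.39 and 2.16 on the EB arrays of that dye, and -1.74 for D0 against -3.76 to -2.10 on the 6 EB arrays in Cy5 that had a value. Both Pdia6 clones were on slide 2. The clone called there read 0.58 and -0.53 for D0 (Cy3, Cy5), a range of -0.33 to 0.43 on the EB arrays in Cy3 and -2.72 to -0.22 in Cy5, and the other read 0.14 and -1.31 for D0, -0.82 to 0.26 in Cy3 and -3.70 to -0.47 in Cy5. The EB ranges of both clones overlapped D0 in Cy5, and D4+LIF had the lowest Cy5 value of each. The 2 Pdia5 clones stayed near 0, between -0.17 and 0.31 in Cy3 and between -0.37 and 0.07 in Cy5. In no EB condition did fewer than 3 of the 6 isomerase clones lie below D0, and all 6 lay below it in D1-LIF and D3-LIF and, with LIF, at Days 1 and 2.

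Among the p24 cargo receptors, which cycle between ER and Golgi and load selected cargo into vesicles, Tmed3 lay as Pdia3 did. In Cy3 it read 1.86 for D0, then -0.58, 1.00, -0.66 and 0.44 without LIF and 0.56, 0.48, -0.08 and 0.21 with LIF. With the sample in Cy5 its ratio was -1.35 for D0, then -3.83, -3.20, -2.89 and -2.49 without LIF and -2.57, -3.23, -3.57 and -4.58 with LIF. Every EB array was under D0 of its dye, and the difference from D0 in D1-LIF was -2.46 ± 0.49 (SE, n = 2), with an adjusted p of 0.103 by limma. In rank among the clones of slide 2, Tmed3 was at 99.4% in D0 and a median of 94.1% in EBs in Cy3, and at 3.30% in D0 and 1.30% in EBs in Cy5. Tmed4 was also under D0 on every EB array, but by little in Cy3, where it read 0.12 for D0 and -0.19 to 0.11 for EBs, and it read -0.08 against -2.10 to -0.34 in Cy5. Tmed2 took the other direction, with -1.10 for D0 and -0.21 to 0.21 for EBs in Cy3, and -0.11 against 0.05 to 0.37 in Cy5. Of the rest of the family, Tmed5 read -1.47 for D0 in Cy3 and 0.04 in Cy5, and Tmed9 3.39 and -0.67, both on slide 1. Tmed10 stayed between -1.14 and 0.38 on all 18 arrays. The Tmed7 clone of slide 1 read 2.71 for D0 in Cy3 and the clone of slide 2 read -0.08, so the 2 clones of that gene did not share the high D0 value.

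The TRAP complex is associated with the translocon and helps some signal sequences to enter it. Ssr2, its beta subunit, had a clone on each slide. The study, which retested its array genes by RT-PCR, describes Ssr2 as lowered when differentiation starts. On slide 2 it read 1.14 for D0 in Cy3, then -0.73, -0.14, -0.86 and -0.60 without LIF and -0.27, -0.25, -0.87 and -0.58 with LIF. The Cy5 arrays gave -1.44 for D0, then -2.49, -1.97, -1.60 and -2.12 without LIF and -1.87, -2.89, -2.85 and -3.72 with LIF. D0 was the highest value on each dye, and the difference in D4+LIF was -2.0 ± 0.47 (SE, n = 2; limma adjusted p = 0.111). Its rank on slide 2 was 96.2% in D0 and a median of 0.703% in EBs in Cy3, but 2.61% and 3.63% in Cy5. On slide 1 the second clone read 3.73 and -0.42 for D0 (Cy3, Cy5). On that slide its EB arrays in Cy3 read -0.60, 0.49, -0.78 and 0.06 without LIF and -0.03, -0.13, -0.58 and 0.17 with LIF. In Cy5 they read -0.12, -2.22 and -1.80 at Days 1, 3 and 4 without LIF, with no value at Day 2, and 2.54, -1.22, -1.76 and -1.57 with LIF. The value of 2.54 in D1+LIF lies opposite to the clone of slide 2 on the same array, at -1.87. Against D0 in D3-LIF the slide 1 clone gave -3.15 ± 1.23 (SE, n = 2; limma adjusted p = 0.248).

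The other subunits were Ssr1, Ssr3 and Ssr4. Both Ssr4 clones read over 2.4 for D0 in Cy3, at 2.70 and 2.44, and their EB values in Cy3 spanned -0.44 to 0.41. Ssr3 on slide 2 read -0.04 and -0.01 for D0, with EB values of -0.43 to 0.13 in Cy3 and of -2.72 to -0.06 in Cy5, so the dyes differed in the EBs and not in D0. The 3 clones of Ssr1 read between -1.51 and -0.19 for D0 in Cy3 and between -0.22 and 0.08 in Cy5, the lowest of them on slide 1. Between 5 and 8 of the 9 TRAP clones were below D0 in each EB condition, with a median of -1.31 in D4+LIF.

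**Figure D4:**
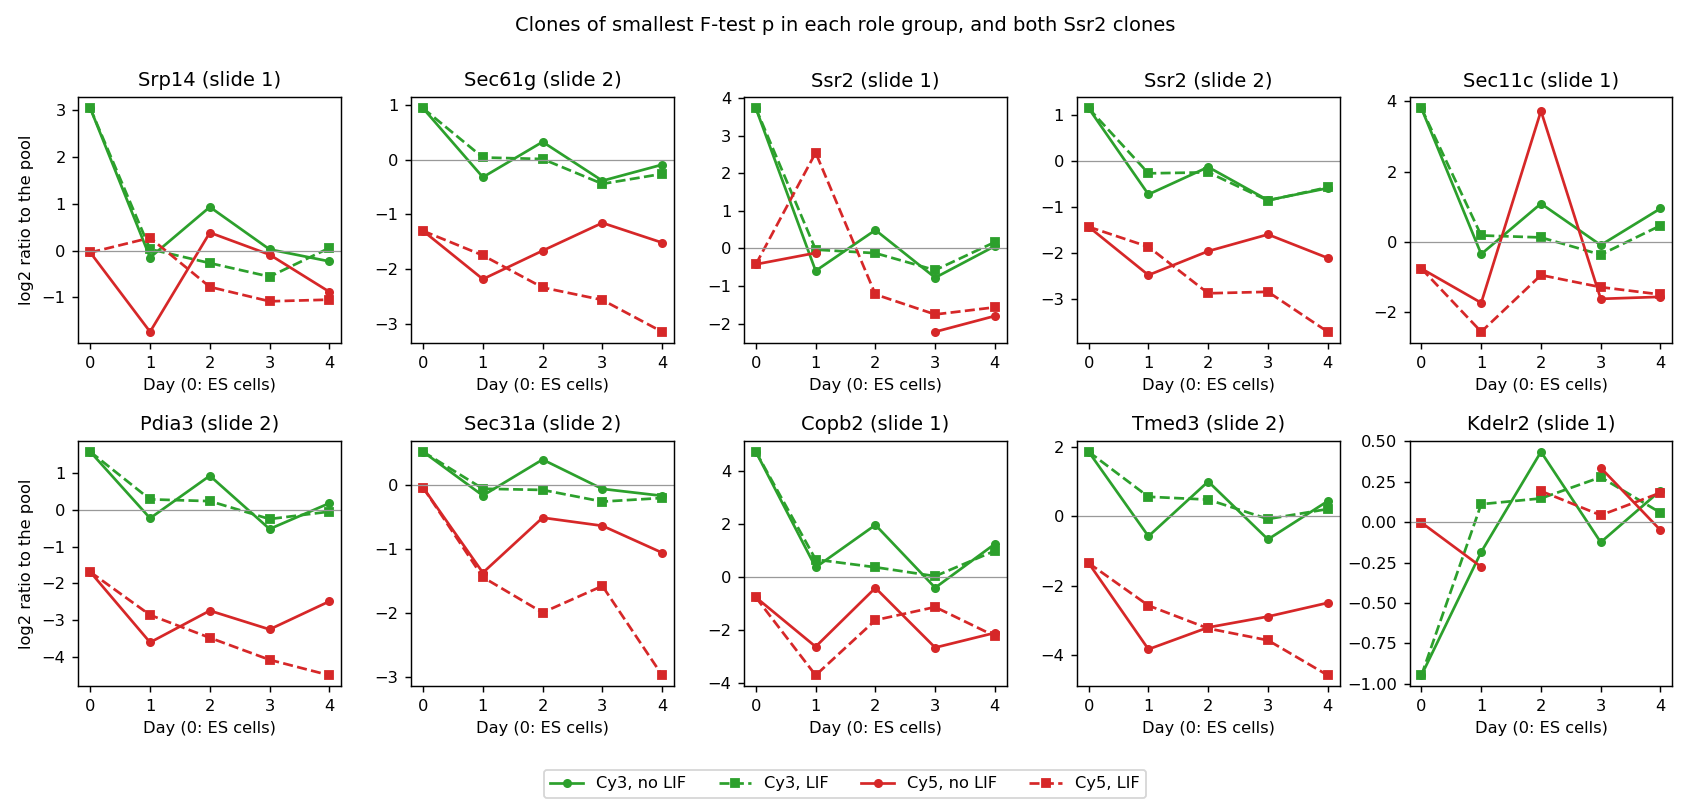
Log2 ratio to the pool (vertical axis, each panel on its own scale) over Days 0 to 4 for both Ssr2 clones and, in each role group, the clone of smallest F-test p, with 1 line per dye and LIF condition. Pdia3, Tmed3, Sec61g and Ssr2 of slide 2 keep a gap between the Cy3 and Cy5 lines at every day, and the Cy5 line with LIF ends lowest at Day 4.

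The translocon was measured by 6 clones. Sec61g, the gamma subunit of the channel, read 0.94 for D0 in Cy3, then -0.32, 0.33, -0.39 and -0.09 without LIF and 0.04, 0.01, -0.44 and -0.26 with LIF. On the Cy5 arrays D0 read -1.30, then -2.19, -1.67, -1.16 and -1.52 without LIF and -1.75, -2.34, -2.57 and -3.15 with LIF. All EB arrays in Cy3 and 7 of 8 in Cy5 were under D0, the exception being D3-LIF, and the difference in D4+LIF was -1.52 ± 0.40 (SE, n = 2; limma adjusted p = 0.12). Sec62, which serves post-translational import, read 1.12 and -1.17 for D0, -0.00 to 0.57 for EBs in Cy3 and -1.81 to -0.60 in Cy5. Sec61a1, an alpha subunit that forms the pore, read 1.17 and 0.11 for D0, and 3.86 on the D1+LIF array in Cy5 against -0.15 to 0.41 on the other EB arrays of that dye that had a value. Sec61a2 and the Sec63 clone of slide 2 kept within 0.5 of 0 on every array, and the Sec63 clone of slide 1 ranged from -0.52 to 1.10.

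For the signal recognition particle and its receptor, the clone of smallest F-test p was Srp14, a subunit of the Alu domain that pauses translation. It read 3.04 for D0 in Cy3, then -0.15, 0.93, 0.02 and -0.23 without LIF and 0.03, -0.27, -0.56 and 0.06 with LIF. In Cy5 it read -0.04 for D0, then -1.74, 0.38, -0.09 and -0.88 without LIF and 0.27, -0.78, -1.09 and -1.05 with LIF. Its D0 value stood above all EBs in Cy3 and within their range in Cy5, and the difference in D1-LIF was -2.44 ± 0.64 (SE, n = 2; limma adjusted p = 0.162). Srp68 on slide 2 was under D0 on all 16 EB arrays, with 0.52 for D0 and -0.23 to 0.19 for EBs in Cy3 and 0.12 against -1.07 to -0.24 in Cy5. Srp9, the partner of Srp14, read 4.43 for D0 in Cy3 on slide 1 and -0.46 on slide 2, and the receptor subunit gene Srpr 3.35 on slide 1 and 0.14 on slide 2. The 2 Srp72 clones, both on slide 1, read 2.67 and 3.62. Srp19, Srp54a and Srprb read 1.39, -0.03 and 1.18, and Srp54a, the only one of these 3 on slide 2, spanned -1.42 to 0.42 on all its arrays.

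The signal peptidase was represented by Sec11c, a catalytic subunit, and by Spcs2. Sec11c, on slide 1, read 3.80 for D0 in Cy3, then -0.35, 1.09, -0.09 and 0.95 without LIF and 0.18, 0.12, -0.37 and 0.46 with LIF. Its Cy5 ratio was -0.76 for D0, then -1.74, 3.73, -1.63 and -1.57 without LIF and -2.57, -0.95, -1.29 and -1.50 with LIF. The 3.73 of D2-LIF stands 4.49 above D0 on the array that lacks most of slide 1, and the other 7 EB arrays in Cy5 lay under D0. The difference in D1+LIF was -2.71 ± 1.24 (SE, n = 2; limma adjusted p = 0.247). Spcs2 read 3.35 for D0 in Cy3 on slide 1 and 0.17 on slide 2, with EB values of -1.68 to -0.07 in Cy5 on slide 2.

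In the COPII coat, Sec31a of the outer cage also lay under D0 in all EBs. On slide 2 it read 0.52 for D0 in Cy3, then -0.16, 0.40, -0.06 and -0.17 without LIF and -0.06, -0.08, -0.26 and -0.20 with LIF. In Cy5 it read -0.04 for D0, then -1.37, -0.51, -0.64 and -1.06 without LIF and -1.44, -2.0, -1.58 and -2.98 with LIF. D0 was the highest on both dyes, and the difference in D4+LIF was -1.83 ± 0.46 (SE, n = 2; limma adjusted p = 0.118). Sec13, the other cage subunit, read 2.62 and -0.91 for D0 on slide 1. Of the cargo-binding inner coat, Sec24c read 0.08 and -0.08 for D0 and -1.38 to -0.07 for EBs in Cy5, Sec24d 1.05 and -0.34 for D0 and 5.47 on the D1+LIF array in Cy5, and the Sec24a clone of slide 2 stayed between -0.18 and 0.25 throughout. Sec23b and the Sec23-interacting gene Sec23ip read 0.03 and 0.06 for D0 in Cy3. The SNARE gene Sec22b had a clone on slide 1 at 3.70 and a clone on slide 2 at -0.40 for D0 in Cy3, which lay on opposite sides of 0 in Cy5 also, at -0.36 and 0.27. Sec22a was under D0 on all 16 EB arrays but by small amounts, with 0.17 and 0.12 for D0 and EB values of -0.06 to 0.15 in Cy3 and -0.57 to 0.01 in Cy5.

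In the COPI coat 6 or 7 of the 11 clones lay below D0 in each EB condition, with a median of -0.02 in D4+LIF. Copb2, a subunit that recognises dilysine retrieval signals, lay far below D0. On slide 1 it read 4.72 for D0 in Cy3, then 0.36, 1.96, -0.41 and 1.25 without LIF and 0.66, 0.37, 0.03 and 0.99 with LIF. Its Cy5 arrays read -0.77 for D0, then -2.63, -0.41, -2.67 and -2.11 without LIF and -3.71, -1.63, -1.14 and -2.23 with LIF. Apart from D2-LIF in Cy5, all EB arrays were under D0, and the difference in D3-LIF was -3.51 ± 0.84 (SE, n = 2; limma adjusted p = 0.198). The 2 Cope clones, both on slide 2, read -0.25 and -0.37 for D0 in Cy3 and 0.27 and -0.14 in Cy5, and in D4+LIF they were above D0 by 0.48 ± 0.20 and 0.49 ± 0.17 (SE, n = 2; limma adjusted p = 0.177 and 0.151). Copg2 on slide 1 read -2.12 for D0 in Cy3, with EB values of -0.22 to 0.47, whereas its clone on slide 2 read 0.13, with -0.21 to 0.11. The 3 Copz1 clones, all on slide 1, gave 2.78, 2.78 and -3.86 for D0 in Cy3, so clones of 1 gene lay at both ends of that slide. Copg1 read 1.14 on slide 1 and 0.59 on slide 2, and Copa stayed between -1.03 and 0.19 on all arrays.

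Kdelr2 was the KDEL receptor gene measured. On slide 1 it read -0.95 for D0 in Cy3, then -0.18, 0.44, -0.12 and 0.20 without LIF and 0.11, 0.15, 0.28 and 0.06 with LIF. In Cy5 it read -0.00 for D0, then -0.28, 0.34 and -0.05 at Days 1, 3 and 4 without LIF and 0.19, 0.04 and 0.18 at Days 2 to 4 with LIF. It lay above D0 in Cy3 in every EB condition, and in D2-LIF, where Cy5 had no value, by 0.98 ± 0.37 (SE, 1 EB array; limma adjusted p = 0.615).

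For D0 in Cy3, clones of the same gene often differed between the slides. Srp9, Srpr, Ssr3, Sec22b, Sec24a, Spcs2 and Tmed7 each had a slide 1 clone at 1.87 or more and a slide 2 clone at 0.17 or less for D0 in Cy3. Ssr2 was high on both, at 3.73 and 1.14. The Cy3 differences of slide 1 all use that 1 slide of D0, and its part in them was not tested.

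The second comparison asked whether LIF moved these genes in EBs. Over Days 1 to 4 no member clone, and no other clone, was called for the mean without LIF minus the mean with LIF (limma, 0%), and 2 member clones had an unadjusted p under 0.05 (3.03%, against 3.44% of all clones). These were Sec31a, at 0.63 ± 0.23 (SE, n = 8 arrays a side), and Srp68, at 0.29 ± 0.13, both higher without LIF and both with a limma adjusted p of 0.869. The Cy5 arrays gave 1.10 and 0.51 for them and the Cy3 arrays 0.15 and 0.07. The median over the member clones was 0.04, with -0.02 in Cy3 and 0.36 in Cy5.

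By day, the member medians without minus with LIF were -0.08 in Cy3 and -0.02 in Cy5 at Day 1, 0.14 and 0.87 at Day 2, -0.10 and -0.09 at Day 3, and -0.02 and 0.10 at Day 4. Day 2 was the only day on which most member clones lay higher without LIF on both dyes, 63.6% of them in Cy3 (48.2% of all clones) and 85.7% in Cy5 (55.9% of all clones). With the Cy3 ratios read the other way, the Cy3 median of Day 2 would be -0.14, opposite to Cy5. The D2-LIF array in Cy5 had values for 42 member clones.

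**Figure D5:**
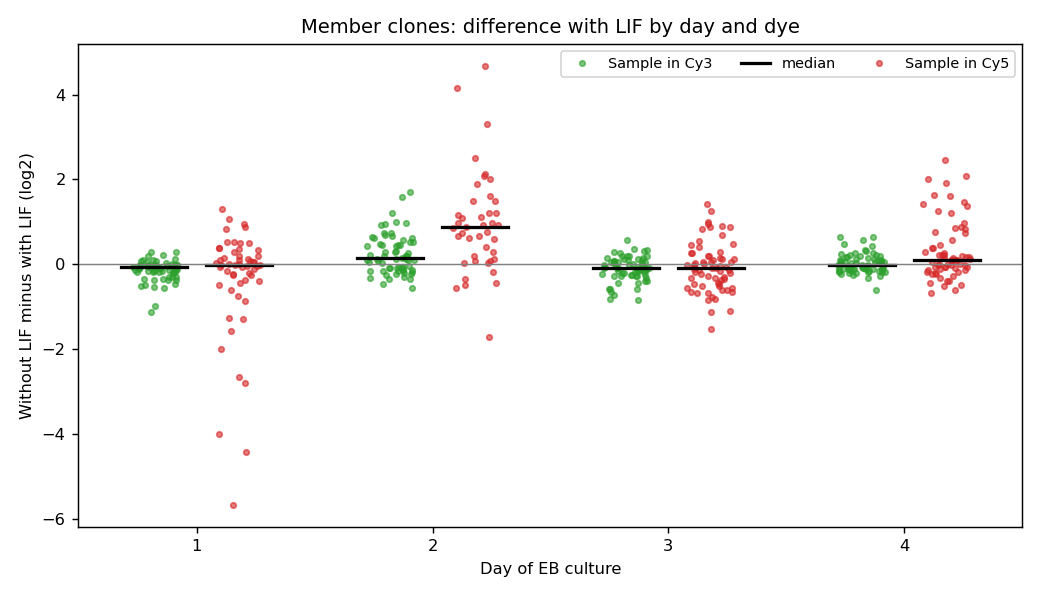
Log2 difference without minus with LIF of each member clone (vertical axis) by day of EB culture and dye, with black bars as medians. The medians lie within 0.2 of 0 except for Day 2 in Cy5, at 0.87.

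The third comparison followed the EBs from Day 1 to Day 4. Neither slope gave a call in the member clones or in any clone (limma, 0%). Without LIF, 0 member clones had an unadjusted p under 0.05 (1.27% of all clones did), and their median slope was -0.01 per day. With LIF, 5 did (7.58%, against 4.12% of all clones), and the median was -0.02 per day. Of these 5, Tmed3 (-0.40 ± 0.15 per day, SE), Ssr2 of slide 2 (-0.35 ± 0.15), Pdia3 (-0.35 ± 0.12) and Sec61g (-0.29 ± 0.13) went down with time and 1 Cope clone went up (0.15 ± 0.06), all with a limma adjusted p of 0.662. In Cy5 the slopes of the first 4 were -0.64, -0.55, -0.55 and -0.44 per day, and in Cy3 they were -0.16, -0.15, -0.15 and -0.14. On the same arrays in Cy5 with LIF, the SD of slide 2 over all clones was 0.70 at Day 1 and 1.41 at Day 4, and the part of that spread in the slopes was not tested. Over all 9 conditions together, the F test called no clone (0%), and 3 member clones, Pdia3, Tmed3 and Copb2, had an unadjusted p under 0.05 (4.55%, against 4.18% of all clones).

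Other genes of the pathway, from lists written for this work, were set beside the member clones. None of them was called against D0, for LIF or in a slope by limma. The list of ER chaperones and folding enzymes had 27 clones of 15 genes, of which 25 lay below D0 at Day 4 under either condition, with medians of -1.21 and -1.52. At an unadjusted p under 0.05, 7 and 10 of them were lower (25.9% and 37%, against 7.17% and 15.3% of all clones). Of the 27 clones, 17 were on slide 1, with medians of -1.81 and -1.71, and the 10 on slide 2 had medians of -0.27 and -0.79. The oligosaccharyltransferase subunits, which attach sugars to the entering chain, had 14 clones, with 10 and 11 below D0 and medians of -0.46 and -1.23, from -1.91 and -1.85 on slide 1 and -0.14 and -0.59 on slide 2. The 31 clones of other ER exit and COPII genes had medians of 0.01 and -0.19. The 15 of other COPI and Arf genes had 0.01 and -0.23, and the 16 of other membrane insertion genes -0.05 and 0.07. The 14 of ER-associated degradation had -0.05 and -0.40, and the 10 of the unfolded protein response -0.22 and -0.24. On slide 1 other ER exit and COPII had -0.75 and -0.82, and on slide 2 0.05 and 0.15. Other COPI and Arf had -1.82 and -2.12 on slide 1 and 0.01 and -0.04 on slide 2. ER-associated degradation had -0.80 and -1.06, then -0.01 and 0.20. Membrane insertion had -0.05 and 0.05, then -0.05 and 0.10. The unfolded protein response had -0.47 and -0.22, then -0.16 and -0.67. With the Cy3 ratios read the other way, the medians of the chaperones were 0.61 and 0.66 and those of the oligosaccharyltransferase 0.50 and 0.36, so their direction turned.

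Among lists of cell type markers, 9 of 10 clones of pluripotency genes lay below D0 in both Day 4 conditions, with medians of -1.80 and -1.74. With the Cy3 ratios read the other way, the medians of these clones were 1.10 and 0.97, so their direction turned. By RT-PCR the study reported that pluripotency markers such as Nanog were kept or rose in EBs without LIF at high serum. Of the 10, 8 were on slide 1, where Nanog read 3.80 and Pou5f1 3.85 for D0 in Cy3, and Dppa5a and Dppa3 on slide 2 read 0.50 and 0.22. The extraembryonic endoderm list, whose cells secrete heavily, had 23 clones of 12 genes with medians of -0.03 and -0.07. At an unadjusted limma p under 0.05, 5 and 6 of these were lower (21.7% and 26.1%, against 7.17% and 15.3% of all clones). At that p 1 and 2 were higher. The medians of this list were 0.16 and 0.01 on slide 1 and -0.18 and -0.28 on slide 2. The fibroblast list had 8 clones with 0.04 and 0.21, and the erythroid list 8 clones with 0.05 and 0.45. The mesendoderm list was measured by 1 clone, of Eomes, with 1.24 and 0.47, and the primitive ectoderm and neurectoderm list by 2 clones, with medians of -0.32 and -0.34. The part of cell type in the differences of the secretory genes was not tested.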

How the data were processed

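Per the labels and methods, the authors scanned each array, quantified it with ImaGene and scaled the channels by their mean intensities, and what was deposited is a linear ratio per spot, with duplicate spots kept apart. The 34560 spots form 2 slides of 17280, and 3840 spots without an entry in the probe table were left out. Ratios were taken to log2, the duplicates of a clone (160 spots apart) were averaged, and each slide of each array was centred on its median. Genes were named from GEO's platform table, and all 46 symbols matched RefSeq by gene ID. Clones measured at least once in every condition were fitted with limma 3.58.1 (R 4.3.3, lmFit and eBayes) as 9 condition means and a dye term, on all 18 arrays, with Benjamini-Hochberg adjustment over all clones. The contrasts were each EB condition minus D0, the mean of the EBs without LIF minus that with LIF, the slopes per day over Days 1 to 4, and the F test over all conditions. The study's SAM, with 4 replicates a condition, counts duplicate spots apart and was not run. The dye stands in for the replicate number. The Cy5 minus Cy3 difference correlated between conditions over all clones at r = 0.38 to 0.90, with 36 of 36 pairs over 0.1. A dye bias of the clones would give such correlations too. They therefore cannot show whether the arrays of 1 dye belong to 1 biological set.

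Precision is limited by the number of arrays, 2 for each condition. The p-values measure the spread left after the condition means and the dye term, over all arrays. That spread mixes dye and biological set where their effects differ between conditions. Channel intensities and depth were not used here. Every member gene was named in its role group, and values on every array are given for Ssr2 and for the clone of smallest F-test p in each group. Members and gene lists were chosen with earlier results of these data known. The script was tested on simulated data in which a clone had the same spread on all arrays, unlike the real arrays. That test does not show how stable the calls are here. The alternatives tried were whole-array or no centring, equal median absolute deviation, array quality weights, quantile normalization, a fit lacking the dye term, values on every array, duplicates within 1 on the log2 scale, slide 2 alone, gene level, the Cy3 sign turned, EB arrays alone, a 2-fold limit and each array left out.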

Additional observations from a re-analysis of the deposited data

Results flagged for a closer look

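The median log2 difference of the member clones without minus with LIF had 1 sign on both arrays of Day 2, at 0.139 in Cy3 and 0.867 in Cy5, and the other sign on both arrays of Day 1, at -0.0767 in Cy3 and -0.0209 in Cy5, and of Day 3, at -0.0955 in Cy3 and -0.0888 in Cy5. The difference between the days was not tested. The shared sign rests on the direction taken for the Cy3 ratios, which no source states. Read the other way, the Cy3 medians are 0.0767, -0.139 and 0.0955 at Days 1 to 3, and the dyes disagree on each of these days. The Day 2 array in Cy5 without LIF had values for 42 of the 66 clones.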

How the results depend on the processing

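The 5 counts of called member clones were 0 in the reported fit. They were also 0 without the dye term (no replicate block), without centring, with equal spread over the array or within each slide, with quantile normalization, with array quality weights, with duplicates within 1, at gene level, with the Cy3 sign turned, with the 2-fold limit, with slide 1 alone and, for LIF and the slopes, with EB arrays alone. Against D0, whole-array centring gave 7 calls over 4 contrasts (1.52% to 3.03% of the members, against 0.456% to 0.97% of all clones), values on every array 5 (11.9%, against 6.13%) and slide 2 alone 10 (3.12% to 21.9%, against 0.508% to 17.1%). With each array left out, the calls against D0 ranged from 0 to 220, those for LIF from 0 to 3, for the slope with LIF from 0 to 5, for the slope without LIF from 0 to 0 and for any condition from 0 to 14. The array of D0 in Cy5 gave the 220 and the 14, which leaves D0 to its Cy3 array alone. The 220 is a sum over 8 contrasts, each with 27.3% to 47% of the members and 21.8% to 36.4% of all clones called. Without D1+LIF in Cy3 the counts were 6 against D0 (10.9%, against 16.4% of all clones), 3 for LIF, 5 for the slope with LIF and 3 for any condition, and without D4+LIF in Cy3 they were 10 against D0 (15.2%, against 18.7%) and 2 for the slope. With 1 array left out, the member medians ranged from -0.61 to -0.21 in D1-LIF, from -0.37 to 0.21 in D2-LIF and from -0.91 to -0.14 in D4+LIF. None of the 10 named differences changed sign, but Srp14 ranged from -3.69 to -1.20, Sec11c from -4.40 to -1.02, Sec31a from -2.67 to -0.99 and Pdia3 from -2.79 to -1.64. A condition left with 1 array is assumed to vary like the others. Counts from such fits are therefore not read as changes in the members. Without D1+LIF in Cy3, the called share of members was close to that of all clones for LIF. For the slope with LIF, the called share of members was under that of all clones without D1+LIF or D4+LIF in Cy3. The 14 and 3 for any condition are given without a share of all clones. Chosen after seeing the data were the order by rank, the lists by slide, slide 1 alone and equal spread within each slide. So were slide 2 alone with the Cy3 sign turned (0 calls), with equal spread (0) and without D0 in Cy3 or in Cy5. With the Cy3 sign turned, Srp14 in D1-LIF became 0.75, Ssr2 of slide 1 in D3-LIF 1.35, Sec11c in D1+LIF 0.91, Copb2 in D3-LIF 1.62 and Kdelr2 in D2-LIF -0.92, and the member medians against D0 lay between 0.05 and 0.27. With equal spread within each slide Sec11c became 0.72. The causes were not tested. Of the other settings of a named clone, 282 kept their side of the threshold and 26 became calls. With no centring the member medians against D0 were between 0.14 and 0.42, since arrays differed in their median ratio.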
